A study of Homo sapiens with 10 samples.

Results

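The 10 genes described here encode the core machinery of microRNA production and action. They are DROSHA and DGCR8, DICER1, the Argonaute genes AGO1, AGO2, AGO3 and AGO4, and the effector genes TNRC6A, TNRC6B and TNRC6C. They were chosen by name from the 20037 protein-coding genes of the RefSeq table, and AGO3 drew attention to the family because its leading WDR5 summit in knockout cells had no wild-type summit within 500 bp. That property of AGO3 is therefore a description and supports nothing.

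Positions came from ChIP-seq, which sequences the DNA bound by a precipitated protein, in HEK293T, a line of human embryonic kidney cells with the large T antigen of SV40. WDR5, a subunit shared by the COMPASS histone H3 lysine 4 methyltransferase complexes, was precipitated with an anti-WDR5 antibody from wild-type cells (WT) and from cells with EMBOW knocked out (KO). EMBOW, a microprotein, was precipitated on anti-FLAG beads from HEK293T cells that stably express the tagged form, EMBOW-FH, and its list of summits is called EMBOW-F. Nuclei were digested with micrococcal nuclease in all of them. Each list came from 1 library, so no difference below has a replicate check. The sources used here do not say whether the knockout line is a single clone. The lists hold 17660 WT, 21055 KO and 93143 EMBOW-F summits, each a single base with a −log10 q from the authors' peak caller. That score was used only to rank summits within a list, with rank 1 the highest. None of the lists measures EMBOW in the WT and KO cells, so the knockout is not checked by them.

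MicroRNAs are short RNAs that lower the output of matching messenger RNAs. In the nucleus, the Microprocessor, made of the ribonuclease DROSHA and its RNA-binding partner DGCR8, cuts a hairpin out of the primary transcript. Dicer trims the hairpin in the cytoplasm, an Argonaute protein keeps 1 strand as a guide, and TNRC6 proteins join Argonaute to the deadenylation and decapping enzymes that silence the target. All of these steps run in most cell types.

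WDR5 was called at the start of nearly every gene of the set in both genotypes, and tagged EMBOW at none of them. A start here is a transcription start listed in the RefSeq promoter table, which has at least 1 start for 9 of the 10 genes and for 15843 protein-coding genes. A WDR5 summit lay within 1 kb of such a start at 8 of the 9 genes in WT, where the share over all protein-coding genes was 54.6%. In KO it was 9 of 9, against 58.1% of all genes, and 8 of 9 had one in both genotypes (51.2% of all genes). AGO1 was the single gene with a start summit in KO and not in WT, a class that held 6.92% of all genes, and none was marked in WT alone (3.38%). The AGO1 summit was weak (−log10 q 2.70), at rank 18269 in KO, which is beyond the 17660 summits of the WT list. Start summits were not recounted at a stricter q or with lists of equal length, and either would drop the AGO1 summit. An EMBOW-F summit was near 0 of the 9 starts (1.09% of all genes). AGO2 has no start in the table, and its WDR5 summits lay inside the gene.

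The upstream sequences of the 3 Argonaute genes on chromosome 1 and of TNRC6A are shown because the results turn on the summits beside them. Each is the 250 bases before the annotated start, read 5′ to 3′ on the plus strand from RefSeq on GRCh38.p14. Capitals mark matches to the motifs named later.
AGO4, chr1:35807766-35808015: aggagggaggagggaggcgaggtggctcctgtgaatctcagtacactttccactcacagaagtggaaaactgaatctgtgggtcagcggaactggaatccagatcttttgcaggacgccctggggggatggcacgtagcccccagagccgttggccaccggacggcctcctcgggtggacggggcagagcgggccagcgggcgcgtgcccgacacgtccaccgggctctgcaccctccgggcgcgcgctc
AGO1, chr1:35882959-35883208: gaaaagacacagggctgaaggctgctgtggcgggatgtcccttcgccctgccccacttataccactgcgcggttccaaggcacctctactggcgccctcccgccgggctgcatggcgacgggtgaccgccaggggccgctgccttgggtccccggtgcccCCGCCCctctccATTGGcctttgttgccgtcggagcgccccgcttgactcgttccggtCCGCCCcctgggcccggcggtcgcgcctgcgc
AGO3, chr1:35930855-35931104: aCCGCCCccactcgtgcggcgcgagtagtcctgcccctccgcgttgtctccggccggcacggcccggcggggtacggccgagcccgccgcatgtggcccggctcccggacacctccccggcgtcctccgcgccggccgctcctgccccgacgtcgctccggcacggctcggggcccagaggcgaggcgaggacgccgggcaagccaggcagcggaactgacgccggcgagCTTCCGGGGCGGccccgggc
TNRC6A, chr16:24729401-24729650: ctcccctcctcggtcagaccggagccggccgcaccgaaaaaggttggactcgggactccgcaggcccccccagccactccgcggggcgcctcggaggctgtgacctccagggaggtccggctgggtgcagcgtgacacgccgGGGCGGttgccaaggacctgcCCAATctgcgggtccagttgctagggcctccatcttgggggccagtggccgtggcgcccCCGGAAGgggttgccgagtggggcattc
The WT summit of AGO3 at 35930990 is base 136 of the AGO3 sequence. It was the only WDR5 summit of either genotype inside any of the 16 such windows of these genes. G and C made up 80.0% of the AGO3 bases, 71.6% of those of AGO1 and of TNRC6A, and 66.4% of those of AGO4.

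AGO4, AGO1 and AGO3 follow each other on the plus strand of chromosome 1 and encode Argonaute proteins that bind microRNA guides. AGO4 spans 35807636 to 35857890, AGO1 35869761 to 35930532 and AGO3 35930718 to 36072500, so that 186 bp separate the end of AGO1 from AGO3. At AGO4 there was 1 summit per genotype, 473 bp into the gene from its annotated start in WT (35808489, −log10 q 9.50, rank 5869) and 434 bp into it in KO (35808450, −log10 q 10.3, rank 6523). These were 39 bp apart. AGO4 thus carried WDR5 at nearly the same place in both libraries, at 33.2% of the WT list and 31.0% of the KO list by rank.

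At AGO3 the leading WT and KO summits lay on opposite sides of the annotated start. In WT it lay at 35930990, 115 bp before the annotated start, with a −log10 q of 20.3 and rank 1441. In KO it lay at 35931527, 422 bp into the gene, with a −log10 q of 30.7 and rank 788. The 2 summits were 537 bp apart, just outside the 500 bp that defines a partner, and the widest pair of the set inside that limit was that of DICER1 at 306 bp. Among the KO summits at the ends of all protein-coding genes, 10.5% had their nearest WT summit between 500 bp and 1 kb away. WDR5 was thus called at the start of AGO3 in both genotypes, and with 1 library each the data do not show whether the offset exceeds what repeat libraries would give. KO had a further AGO3 summit at 35934813, 3708 bp into the gene, at rank 13848 and 3823 bp from any WT summit.

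AGO1, the neighbour that ends where AGO3 begins, looked different once its own start was read. Both AGO3 summits fall within 1 kb of the 3′ end of AGO1, 458 bp from it in WT and 995 bp in KO, so a rule of either gene end counts AGO1 as marked in both genotypes. Its annotated start at 35883209 lies 13448 bp inside the RefSeq gene span. There WT had no summit nearer than 47781 bp. KO had a weak one at 35883498, 289 bp into the gene, with a −log10 q of 2.70 and rank 18269 of 21055.

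The authors' deposited table of new WDR5 targets dependent on EMBOW lists 8 transcripts of AGO1. By position, 5 of the 8 start within 1 kb of that KO summit, among them ENST00000373204.6 at 289 bp and ENST00000699843.1 at 136 bp. The authors' list comes from the same study, so it is no independent check of this weak summit. Of the 9 genes with a known strand, AGO1 was the one with a same-strand transcript in the authors' deposited table, which covers 9.07% of protein-coding genes with a strand. AGO3, with the far stronger KO summit, has none in the authors' deposited table.

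**Figure D1:**
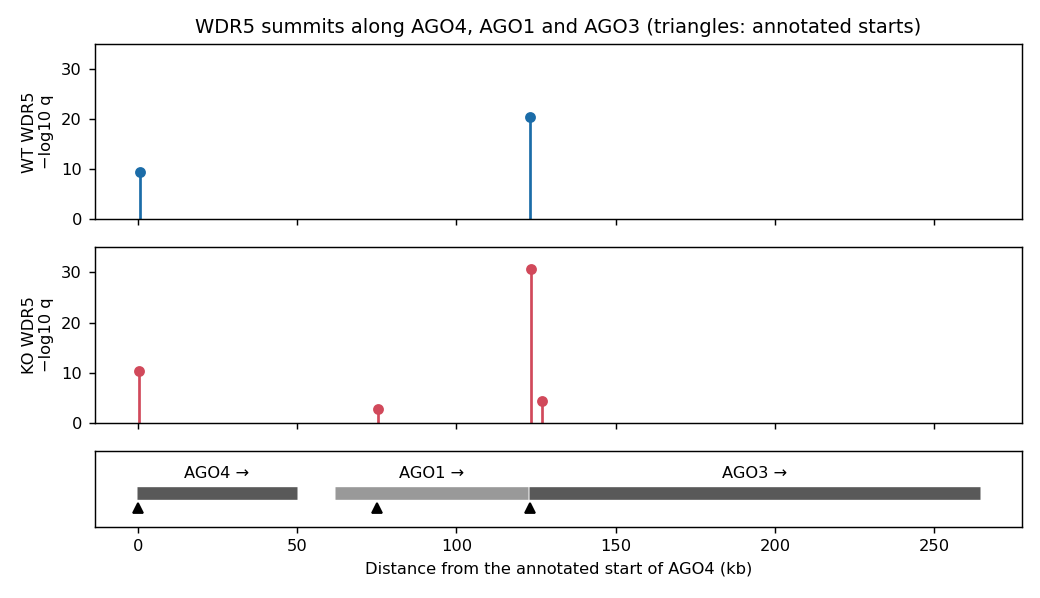
WDR5 summits along AGO4, AGO1 and AGO3, placed by distance in kb from the annotated start of AGO4, with the authors' −log10 q on the vertical axis (WT blue, KO red); bars are RefSeq gene spans and triangles annotated starts. Both lists have a summit at AGO4 and at AGO3, and the low KO summit of AGO1 (−log10 q 2.70) has no WT counterpart.

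AGO2 encodes the Argonaute that can cut its target RNA. The gene spans 140520156 to 140642313 on chromosome 8. Its strongest WT summit lay at 140634959, 7354 bp inside the upper end of the span, with a −log10 q of 14.4 and rank 3027. The nearest KO summit, at 140634425, lay 534 bp lower, with a −log10 q of 6.31 and rank 10503. As at AGO3, the pair fell just outside the 500 bp limit, but at AGO2 the WT summit stood higher in its list.

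The remaining AGO2 summits were weak. WT had 1 at 140620135 (rank 16950), and KO had 1 at 140614745 (rank 16568) and 1 at 140636003 (rank 19586). The last lay 278 bp from the 5′ end of ENST00000623655.2, a plus-strand transcript in the authors' deposited table that lies inside AGO2, and the nearest WT summit to that 5′ end was 1322 bp away. That transcript lies within the span of the long noncoding RNA gene ERICD, which was looked up after the summits were seen. ERICD spans 140634235 to 140638283, so the leading WT and KO summits of AGO2 also lie within it.

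At both Microprocessor genes, the summit just inside the start lay within 26 bp of its partner in the other list. DGCR8, on chromosome 22 from 20080241 to 20111872, had its highest summit 156 bp into the gene in WT (20080397, −log10 q 19.4, rank 1641). In KO it was 130 bp into the gene (20080371, −log10 q 19.9, rank 2084), 26 bp from the WT base. Both were in the top 10% of their lists. A weaker summit lay upstream in each, 406 bp before the start in WT (rank 15150) and 682 bp before it in KO (rank 11226). KO also had one 1028 bp into the gene, at rank 21048, almost the last of the list. TRMT2A, whose end lies 3 bp beyond the other end of DGCR8, shared no summit with it.

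DROSHA, on the minus strand of chromosome 5 from 31400494 to 31532093, starts 208 bp from the divergent gene C5orf22. The summit just inside DROSHA lay 141 bp from the start in WT (31531952, −log10 q 6.76, rank 8403) and 152 bp from it in KO (31531941, −log10 q 7.04, rank 9505). Those bases were 11 bp apart. The partner summit on the other side lay 302 bp into C5orf22 in WT (31532603, −log10 q 10.7, rank 4916) and 164 bp into it in KO (31532465, −log10 q 1.97, rank 20084). Within the WT list the C5orf22 side ranked above the DROSHA side, and within the KO list it ranked far below it. This shared region therefore held the same pair of summits in both genotypes, in opposite order of rank.

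DICER1, which encodes the enzyme that trims the hairpin, held one of the strongest summits of the set. The gene lies on the minus strand of chromosome 14 from 95086228 to 95158010 and has 5 annotated starts, the first 3 of them within 481 bp. In WT the leading summit lay at 95156869, 660 bp into the gene from the start at 95157529 (−log10 q 28.3, rank 658). In KO it lay at 95157175, 354 bp into the gene from the same start (−log10 q 39.1, rank 464). The KO base was 306 bp nearer to the start, the converse of AGO3, where the KO summit was the one deeper in the gene. WT had a weaker summit at 95157780 (−log10 q 3.44, rank 14083), 605 bp from the KO one and 92 bp into DICER1-AS1, an antisense noncoding gene looked up after the summits were seen.

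The TNRC6 genes, whose proteins link Argonaute to the silencing enzymes, ranged from the strongest to among the weakest starts of the set. TNRC6A, on chromosome 16 from 24610205 to 24826218, had the highest-ranked summit of all 10 genes in both lists. It lay 155 bp into the gene from the annotated start in WT (24729806, −log10 q 39.5, rank 334) and 145 bp into it in KO (24729796, −log10 q 42.5, rank 386), 10 bp apart. These ranks are in the top 2% of each list, at 1.89% in WT and 1.83% in KO. Because that start lies 119446 bp inside the RefSeq span, a rule of gene ends misses TNRC6A altogether. KO had 2 further weak summits in the gene, at ranks 15523 and 20933, with no WT summit within 4 kb.

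TNRC6C, on chromosome 17 from 77957557 to 78108835, carried a row of 3 summits in each genotype. In WT they lay 415 bp before, 133 bp into and 705 bp into the gene, counted from the start at 77958703, at ranks 4916, 1670 and 8772. In KO they lay 491 bp before, 119 bp into and 658 bp into it, at ranks 3437, 5107 and 14320. Each had a partner within 76 bp, and neighbours within a row were 548 and 572 bp apart in WT and 610 and 539 bp in KO. The middle summit was the highest of the row in WT, and the upstream one was the highest in KO.

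TNRC6B, the longest gene of the set, spans 40044834 to 40335808 on chromosome 22. Its start summit was moderate, 640 bp into the gene in WT (40045474, −log10 q 7.75, rank 7306) and 460 bp into it in KO (40045294, −log10 q 6.17, rank 10719). Deep in the gene, 133398 bp from the start in WT (40178232, rank 12301), a summit recurred 20 bp away in KO (40178252, rank 14129). It was the only summit of the set over 10 kb from an annotated start and from both gene ends that had a partner, with AGO2, which has no annotated start here, left aside. A WT summit 24867 bp into the gene (rank 12147) had no KO summit within 24407 bp.

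**Figure D2:**
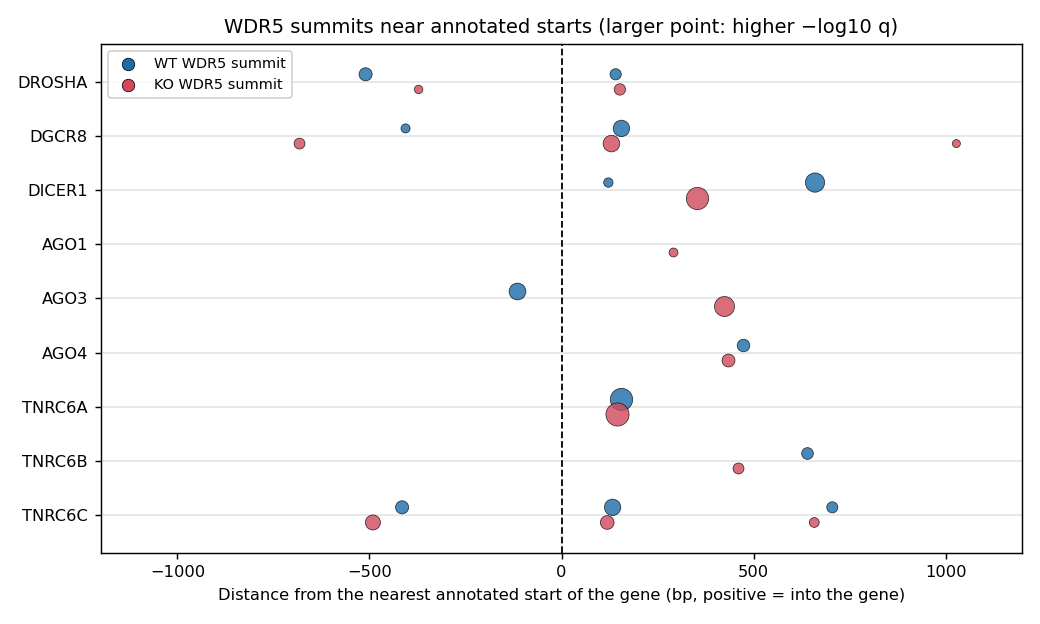
Position of WDR5 summits within 1.2 kb of the nearest annotated start of each gene, in bp with positive values into the gene (WT blue, KO red); a larger point has a higher −log10 q, and AGO2 is left out because the table gives it no start. Between 100 and 200 bp into TNRC6A, TNRC6C, DGCR8 and DROSHA, the WT and KO points lie 10 to 26 bp apart, and DICER1 has a WT point alone there. AGO3 has its WT point before the start and its KO point after it.

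Across the genes, summits gathered just inside the start, as they did genome-wide. With each summit given to its nearest start of any protein-coding gene, 12 WT and 12 KO summits belonged to the set. Of these, 9 in WT and 10 in KO lay into the gene, against 74.6% and 73.0% of all summits near a start. Between 100 and 200 bp into the gene lay 5 of the 12 in WT (DROSHA, DGCR8, DICER1, TNRC6A and TNRC6C) and 4 in KO (DROSHA, DGCR8, TNRC6A and TNRC6C). The share over all genes was 27.1% in WT and 26.3% in KO. The median position over all genes was 169 bp into the gene in WT and 168 bp in KO. The start summits of AGO4 and TNRC6B lay deeper than the upper quartile of all summits in both lists, which was 306 bp in WT and 303 bp in KO. So did the leading summit of DICER1 and the innermost summit of TNRC6C.

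**Figure D3:**
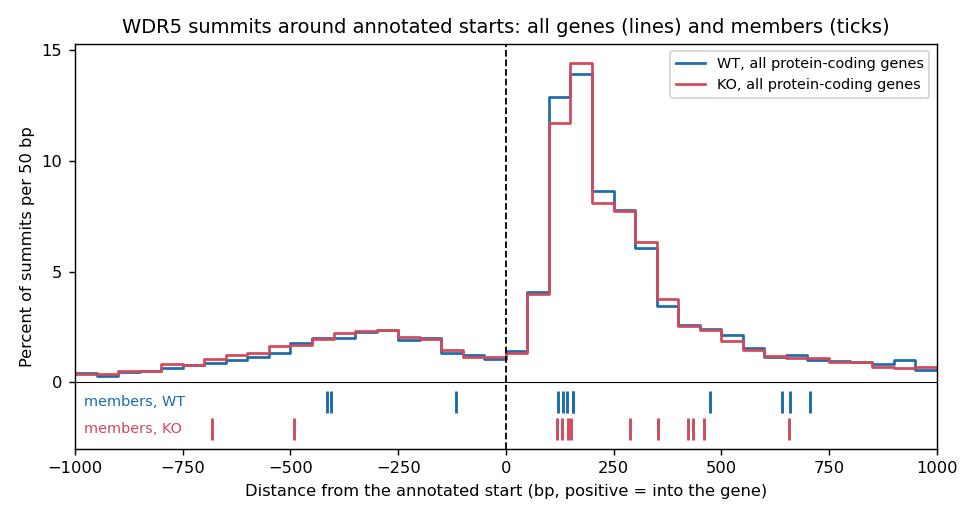
Share of WDR5 summits per 50 bp around annotated starts of all protein-coding genes (lines; WT blue, KO red; percent of the 9955 WT and 10788 KO summits within 1 kb of a start), with the summits of the microRNA machinery genes as ticks below. The lines peak between 100 and 200 bp into the gene in both genotypes, and the ticks cluster there, with others further in or upstream.

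Counted together, the genes held 17 WT and 21 KO summits inside their spans or within 1 kb of an end. Of the KO summits 12 had a WT partner within 500 bp, with 59.6% over the whole KO list, and of the WT summits 12 had a KO partner, with 71.3% over the whole WT list. The 12 pairs lay between 10 and 306 bp apart, with a median of 43 bp. Unpaired summits ranked lower than paired ones by the median, at 16568 against 8014 in KO and 12147 against 5392.5 in WT. Of the 9 unpaired in KO, 7 ranked below the middle of the list, and of the 5 in WT 3 did. The same share over all unpaired summits of each list is not given here, so this is not a trait of these genes. With a q of 1e-05 or less, the unpaired summits were those at AGO3 and AGO2 alone in each genotype. These are the pairs offset by 537 and 534 bp, and the offset at AGO3 is what drew attention to the family.

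Counted by the rule of either gene end within 1 kb, 8 of the 10 genes had a summit in WT, with 50.0% over all protein-coding genes, and the same 8 in KO, with 53.4% (46.4% of all genes had one in both). The other two were TNRC6A and AGO2, whose summits lie further inside, and AGO1 entered only through the summits of AGO3. No gene of the set was marked in 1 genotype alone by this rule, which held 6.99% of all genes in KO only and 3.51% in WT only. Of the KO summits near these ends 8 of 9 had a WT partner (75.1% over all gene ends), and of the WT summits 7 of 9 had a KO partner (82.0%). The KO summit without a partner is that of AGO3, which drew attention to the family, so these counts are not free of that choice. Inside the spans, all 10 genes had a KO summit and 9 a WT summit, AGO1 being the exception. The shares were 67.2% and 63.1% among the 7749 genes within the length range of the set, 31.6 to 291 kb. With only summits of a q of 1e-05 or less, 9 genes had a KO summit inside the span and 9 a WT summit. With all summits and more than 1 kb from either end, 7 genes had a KO summit (28.9% of genes in that length range) and 5 a WT summit (23.5%). These include summits within 1 kb of a start at TNRC6A and TNRC6C, at AGO1 in KO and at DICER1 in WT. They also include the KO summit 1028 bp into DGCR8, at rank 21048.

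**Figure D4:**
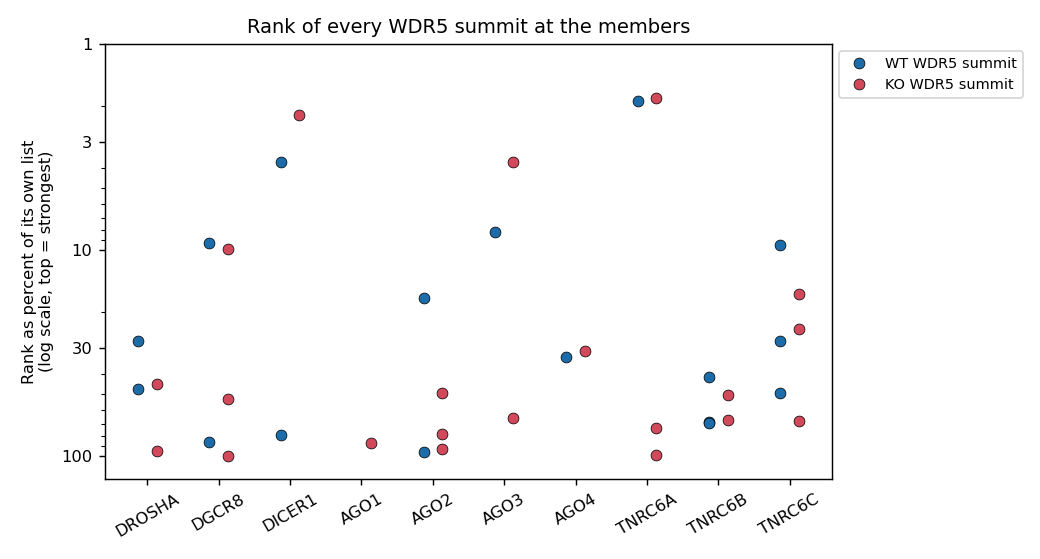
Rank of every WDR5 summit inside each gene or within 1 kb of its ends, as percent of its own list on a log axis with the strongest at the top (WT blue, KO red); for AGO1 the 2 summits that lie in AGO3 are drawn at AGO3 alone. TNRC6A stands highest in both lists, and the single point of AGO1 is a weak KO summit.

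By the rank of the leading summit, the order in WT was TNRC6A, DICER1, AGO3, DGCR8, TNRC6C, AGO2, DROSHA, AGO4 and TNRC6B, with AGO1 lacking one of its own. For DROSHA the leading WT summit is the one in C5orf22. By the summit inside DROSHA itself (rank 8403), it would come after TNRC6B (rank 7306). In KO the order was TNRC6A, DICER1, AGO3, DGCR8, TNRC6C, AGO4, DROSHA, AGO2, TNRC6B and AGO1. The first 5 genes thus came in the same order in both lists. Without replicates, no 2 neighbours in these orders can be said to differ.

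Tagged EMBOW was not called at any of the 10 genes, either inside the 1268 kb of their spans or within 1 kb of their ends. EMBOW-F summits were rare at genes in general, found near an end of 1.40% of all protein-coding genes and inside the span of 5.15%, so a count of 0 among 10 genes is near the background. The nearest EMBOW-F summit lay 32.3 kb beyond TNRC6A (24858530, −log10 q 1.68, rank 87716 of 93143) and 250 kb from DROSHA. The Argonaute genes AGO4, AGO1 and AGO3 sit in a stretch of 24.6 Mb of chromosome 1, from 23531057 to 48167664, without any EMBOW-F summit. DGCR8, AGO2 and DICER1 also sit in such empty stretches, of 7.20, 5.15 and 5.14 Mb. The share of all genes in stretches of this kind is not given here. For TNRC6B the nearest was 13.9 Mb away. The WDR5 summits of this gene family, called in WT and KO cells, thus had no EMBOW-F summit beside them, as at most genes. EMBOW-F comes from other cells, which express the tagged protein.

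The sequences before the starts were rich in G, C and CpG, as are most starts with WDR5 here. Among the 10 windows whose start was the nearest one to a summit, G and C made up 52.0 to 80.0% of the 250 bases (median 71.0%) and the number of CpG dinucleotides ran from 11 to 48 (median 23). The medians were 68.0% and 24 over protein-coding windows with a WT and a KO summit within 1 kb of the start, and 52.8% and 5 over those with neither. DGCR8 held the most CpG, 48, followed by AGO3 with 41.

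Short motifs were searched on both strands of these 250 bases. Shares in parentheses are those over protein-coding windows with a WT and a KO summit near the start, to which these windows belong except that of AGO1, with a KO summit alone. GGGCGG, the GC box, stood in 9 of the 10 windows (74.4%). CCAAT stood in 7 (32.3%), with 5 matches in TNRC6B and 4 in DGCR8, and CCGGAAG, an ETS core, in those of AGO3, TNRC6A and TNRC6B (17.0%). In AGO3 the ETS match and the second GC box overlap. CACGTG, the E-box, stood only in TNRC6C (9.74%). The TATA box TATAAA was in none of them (4.03%). The same held for the YY1 core GATGGCG (3.68%) and for the NRF1 core, searched as GCATGCG (5.86%). Over all 16 windows of these genes, whether or not a summit lay near, the GC box stood in 10 and CCAAT in 8, with 53.7% and 32.7% over windows of all protein-coding genes, and the median share of G and C was 59.2%, against 62.0%. AGO4 held none of the 7 motifs in its window. These matches describe letters and do not show binding.

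Most other genes of the pathway carried WDR5 at a gene end too. Of 59 genes from a list of processing, loading, silencing and turnover factors, 50 carried WDR5 within 1 kb of an end in WT, and the same 50 plus 2 more did so in KO. Over all protein-coding genes the shares were 50.0% in WT, 53.4% in KO, 46.4% in both and 6.99% in KO only. All 13 genes of nuclear processing and export were marked in both genotypes, and SAFB and SAFB2, which lie head to head, shared their leading summit in each. The highest in KO were RAN, the small GTPase that drives nuclear export (rank 840, WT rank 1205), and KHSRP, an RNA-binding protein of microRNA processing (rank 974, WT rank 634). The 11 chaperones and Argonaute partners were likewise all marked. In KO they were led by PTGES3, an HSP90 co-chaperone (rank 1428, WT rank 863), and DNAJA2, an HSP40 protein (rank 2351, WT rank 4623).

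Of the 17 deadenylation and decapping genes, 16 were marked in both. CNOT2 and CNOT9, subunits of the CCR4-NOT deadenylase, led in KO at ranks 392 and 675, where their WT ranks were 1584 and 3999. The leading genes of each role were picked by KO rank, which by itself favours a lower rank in WT. EIF4ENIF1, a protein that binds the cap-binding factor eIF4E, was the exception by the gene-end rule but had a summit within 1 kb of an annotated start in both. Of the 5 Dicer partners, PRKRA and ADAR led in KO (ranks 1977 and 4439), where their WT ranks were 1584 and 935. TSN, a subunit of the nuclease complex that clears the cut passenger strand, was marked in KO and not in WT, by a weak summit 266 bp from the gene end (121755917, −log10 q 3.61, rank 15523). The nearest WT summit was 18949 bp from an end of TSN.

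Tailing and turnover genes stood at 6 of 9 in WT and 7 in KO. XRN2, a nuclear exonuclease, led in KO (rank 563, WT rank 634). TUT7, a terminal uridylyltransferase that adds uridines to microRNA precursors, was marked in KO alone, by a summit at 86354188 (−log10 q 23.1, rank 1530), and its nearest WT summit lay 5379 bp from a gene end. TSN and TUT7 were the 2 genes of the list marked in a single genotype. LIN28A and LIN28B, which block maturation of the let-7 family, had no gene-end summit in either genotype, though LIN28B had one within 1 kb of an annotated start in both. The 4 PIWIL genes, Argonaute relatives of the germline, had none within 1 kb of an end or inside the gene in either list, and no gene of the pathway list had an EMBOW-F summit there.

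**Figure D5:**
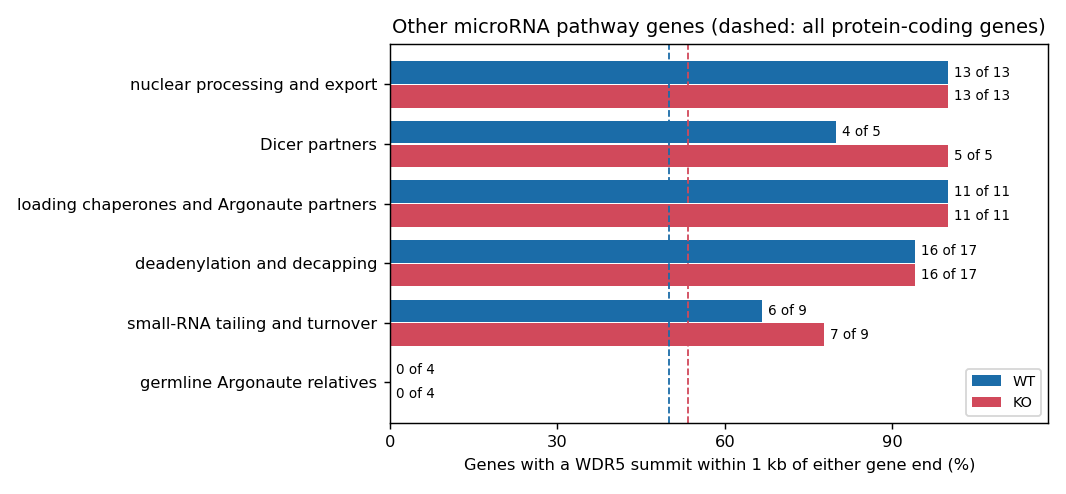
Percent of genes with a WDR5 summit within 1 kb of either gene end, by role in the microRNA pathway (WT blue, KO red; counts at the bar ends), with dashed lines at the share over all protein-coding genes, 50.0% in WT and 53.4% in KO. Every group but the PIWIL relatives, at 0 of 4, stands above both lines.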

How the data were processed

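ChIP-seq summit lists were analysed for WT WDR5, KO WDR5 and tagged EMBOW. H3K4me3 and input libraries, among the 10 labelled samples, were not analysed here. The deposited values are −log10 q scores per 1 bp summit, a unit read from the values, since the lowest lies just above 1.30, that of a q of 0.05. The submitters' processing notes name the build hg38 and the tools MACS2 2.2.7.1, Bowtie2 2.4.5 and deepTools 3.5.1 without saying what each did. Read depth, the input used and any pooling are not stated there, and list length was not corrected for depth. The EMBOW-F list was assigned to the FLAG precipitation, the sole ChIP of tagged EMBOW.

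Genes were taken from RefSeq GRCh38.p14 (chromosomes 1 to 22, X and Y), and starts and strands from its promoter table. Summits within 1 kb of a gene end or start were counted, and summits within 500 bp were partners. The authors' deposited table holds 18665 transcripts, and 1 truncated chromosome name was repaired. With 1 library per group no test was run and no p-value or interval is given. The members and lists were chosen with earlier results of these data known. All 10 genes are named. From the pathway list the text takes, per role, the 2 highest in KO and every gene marked in a single genotype. EIF4ENIF1, LIN28A, LIN28B, SAFB, SAFB2 and the PIWIL genes were added after their values were seen. Distance steps were tested on simulated data. Python 3.11.15, numpy 2.4.6, pandas 2.3.3 and matplotlib 3.10.9 were used.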

Additional observations from a re-analysis of the deposited data

How the results depend on the processing

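Of 55 values recomputed under other settings, 48 stayed within 1.5 times the reported count. With a gene-end window of 500 bp, 5 genes were marked in WT and 3 in KO, so that TNRC6B was marked in KO alone (1 gene) and DICER1, AGO1 and AGO3 in WT alone (3 genes). Under each of 2 other settings, 1 gene was marked in KO alone. With a q of 1e-05 or less it was DICER1, whose stronger WT summit lies 1141 bp from the gene end. With annotated starts in place of gene ends, a setting added after the data were seen, it was AGO1. Without the 1 kb next to either end, 5 genes had a WT summit inside the span. No setting gave an EMBOW-F summit at any of the 10 genes. Lists of equal length do not apply to EMBOW-F, so that value was not computed. No paired analysis was possible because each group has 1 library. Leaving out a library would leave no value.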
